A study of Rattus norvegicus with 6 samples.

Results

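The somatostatin receptors Sstr1 to Sstr5 were read in RNA of a rat β-cell line after depletion of the nuclear receptor COUP-TFII. The family was taken as every probe set annotated to these 5 genes, which gave 8 probe sets out of 31042, where 14217 genes were named in all. It was selected on the signals of the same 6 arrays, by replicate number and set against the control probe sets for Bacillus transcripts, so the values of the receptors are given as a description and without a test. The cells were 832/13 INS-1 cells, 1 clonal line derived from a rat insulinoma, used between passages 7 and 25 in medium with 11 mM glucose. The 3 COUP-TFII siRNA samples received siRNA against COUP-TFII by electroporation and the 3 scrambled siRNA samples received a scrambled siRNA in the same way. Both groups were cultured for 48 h before RNA was extracted, so the controls carry the electroporation and an siRNA as well. No untransfected cells entered the comparison, and a clonal tumour line stands in here for the β-cells of an islet. The labels call the samples biological replicates, numbered 1 to 3 in each group, without saying what a number shares.

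Somatostatin is a peptide released by the delta cells of the islet, by neurons and by gut endocrine cells. Its receptors are G protein-coupled receptors that act through the inhibitory Gi and Go proteins. In β-cells they are known to lower cAMP, open inwardly rectifying potassium channels and restrain voltage-gated calcium channels, and so to hold back insulin release. Sstr2, Sstr3 and Sstr5 form the branch of the family that binds octreotide-type analogues well, and Sstr1 and Sstr4 form the branch that binds them poorly.

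Each probe set combines several short oligonucleotides into an intensity, here on a linear scale, and may match more than 1 transcript. Transcripts of Bacillus are foreign to rat cells. Their 27 control probe sets had signals of up to 20.7, and any signal over that value is called above the Bacillus scale. A gene whose mean lies at or below it in both groups is called dim. The highest of these controls on a single array lay between 11.8 and 20.7, so the scale was set by 1 array, COUP-TFII siRNA replicate 1. Signals of different probe sets were not compared as amounts of RNA, because probes differ in brightness. In a bulk sample fewer cells of a type and less RNA per cell cannot be told apart. On each array 36.2% to 43.7% of all probe sets lay at or below the Bacillus scale. The E. coli BioC hybridization controls averaged 126 on COUP-TFII siRNA replicate 2 and 101 on scrambled siRNA replicate 2, and between 496 and 531 on the other arrays. All 11 measured β-cell markers read above the Bacillus scale on all 6 arrays. Glucagon (Gcg) also did so, and its signal followed the replicate number, with 8056, 4789 and 817 in COUP-TFII siRNA replicates 1 to 3 and 6313, 3397 and 394 in scrambled siRNA replicates 1 to 3. Of the other lists, 1 acinar marker (Ctrb1), 1 fibroblast marker (Pdgfra), 1 macrophage marker (Cd68) and 1 endothelial marker (Kdr) read above it on all 6 arrays, and no PP cell or duct cell marker did.

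Nr2f2, the gene for COUP-TFII, was checked first. Its brightest probe set, 1389554_at, read 47.0, 27.7 and 23.8 in COUP-TFII siRNA replicates 1 to 3, against 182, 235 and 179 in scrambled siRNA replicates 1 to 3. Nr2f2 1370063_at read between 19.7 and 22.2 in COUP-TFII siRNA samples, against 61.8 to 79.9 in scrambled siRNA samples. Both therefore read lower on every COUP-TFII siRNA array than on any scrambled siRNA array. Nr2f2 1395863_at stayed under the Bacillus scale on all 6 arrays, with a log2 fold change of -0.37 (SE 0.56).

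Of the 8 receptor probe sets, 3 read above the Bacillus scale on all 6 arrays, 1 each for Sstr1, Sstr2 and Sstr3. Another 2 read at or below it on all 6 arrays, 1 for Sstr1 and the only one for Sstr4. The remaining 3, for Sstr1, Sstr2 and Sstr5, crossed the scale on some arrays. The members nearest to it were Sstr2 1371174_s_at, with 20.71 in scrambled siRNA replicate 1, just over the scale of 20.67, and Sstr1 1387692_a_at, with 20.38 in COUP-TFII siRNA replicate 3, just under it.

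**Figure D1:**
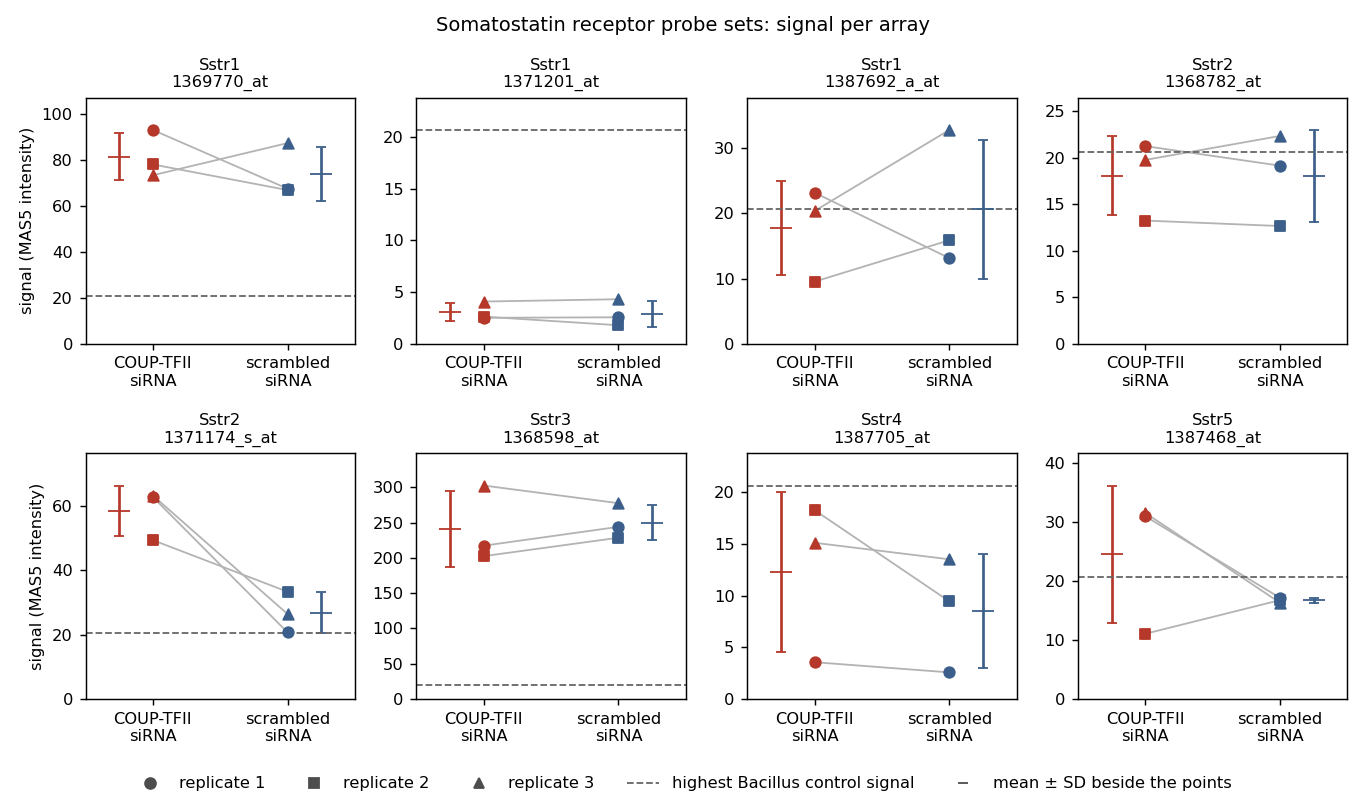
Signal of each somatostatin receptor probe set on the 6 arrays (linear MAS5 intensity, vertical axis), with COUP-TFII siRNA in red, scrambled siRNA in blue, grey lines joining arrays of the same replicate number, bars for the mean ± SD (n = 3) and a dashed line at the highest Bacillus control signal, 20.7. Sstr2 1371174_s_at is the panel in which all 3 COUP-TFII siRNA arrays, at 49.4 to 63.3, lie above all 3 scrambled siRNA arrays, at 20.7 to 33.4.

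Sstr2, which in mouse islets is best known as the receptor of glucagon-producing alpha cells, was read by 2 probe sets that differed from each other. The promoter of the gene is shown because 1 of them, 1371174_s_at, parted the groups, although the other, 1368782_at, did not. It covers 250 bases before to 50 bases after the annotated start, at chr10:99163103-99163402 on the plus strand of the RefSeq assembly GRCr8, and the capitals mark a palindromic cAMP response element, TGACGTCA, that starts 73 bases before the gene's start.
Sstr2 promoter: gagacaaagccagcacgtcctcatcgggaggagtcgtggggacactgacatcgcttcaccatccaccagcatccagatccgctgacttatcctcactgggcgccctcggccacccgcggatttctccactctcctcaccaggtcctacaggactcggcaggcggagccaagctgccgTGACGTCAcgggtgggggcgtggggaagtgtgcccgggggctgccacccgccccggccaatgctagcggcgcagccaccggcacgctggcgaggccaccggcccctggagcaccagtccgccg
Both strands of the promoters were searched for AGGTCA, the half-site to which COUP-TF receptors bind, for AGGTCANAGGTCA, a direct repeat of that half-site with 1 base between, which overlaps the first motif, and for TGACGTCA. The last was chosen after the sequence had been read. The half-site was present in none of the 5 receptor promoters and in 16.2% of 33469 rat promoters of the same length, and the direct repeat in none of the 5 and in 0.0538% of all. The cAMP response element stood in the Sstr2 promoter alone among the receptors and in 1.83% of all promoters. The GC content was 68.7% for Sstr2, 53.7% for Sstr1, 62.7% for Sstr3, 71.7% for Sstr4 and 63.7% for Sstr5, against a mean of 52.7% over all promoters. These matches describe letters in a window and not bound sites.

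Sstr2 1371174_s_at read 62.8, 49.4 and 63.3 in COUP-TFII siRNA replicates 1 to 3, against 20.7, 33.4 and 26.4 in scrambled siRNA replicates 1 to 3. The groups did not overlap, and each COUP-TFII siRNA array read above the scrambled siRNA array of its own number. The means were 58.5 ± 7.88 in COUP-TFII siRNA samples and 26.8 ± 6.34 in scrambled siRNA samples (SD, n = 3 each). The log2 fold change was 1.14 (SE 0.34), or 2.21-fold. The differences by pair, between arrays of the same replicate number, were 1.60, 0.57 and 1.26 on the log2 scale, with the smallest in the pair of replicate 2 arrays, where the BioC controls were low. Without both replicate 2 arrays, a choice made after the values were seen, the log2 fold change was 1.43 (SE 0.40).

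Sstr2 1368782_at, the probe set annotated through the RefSeq transcript, read 21.3, 13.2 and 19.8 in COUP-TFII siRNA replicates 1 to 3, against 19.2, 12.7 and 22.4 in scrambled siRNA replicates 1 to 3. The groups overlapped over nearly their whole range, and replicate 2 was the lowest array in both. The means were 18.1 ± 4.26 and 18.1 ± 4.94 for COUP-TFII siRNA and scrambled siRNA (SD, n = 3 each), with a log2 fold change of 0.01 (SE 0.51). The differences by pair were 0.15, 0.07 and -0.18. It exceeded the Bacillus scale on 1 array of each group. Against a lower scale, the mean Bacillus signal of the same array, it read above background on all 6 arrays. Rodent Sstr2 RNA is known in an unspliced and a spliced form, whose receptors differ in the tail, and the annotation used here does not say which of them either probe set reads. The annotation also gives no probe positions, and the reason why the probe sets of Sstr2 part was not tested.

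Sstr5, which in mouse islets is known as a receptor of β-cells, was read by 1387468_at. It had signals of 31.0, 11.1 and 31.6 in COUP-TFII siRNA replicates 1 to 3, against 17.2, 16.8 and 16.3 in scrambled siRNA replicates 1 to 3. Replicates 1 and 3 of the COUP-TFII siRNA group read above the Bacillus scale, replicate 2 of that group was the lowest of the 6 arrays, and the scrambled siRNA arrays lay close together under the scale. The means were 24.6 ± 11.7 in COUP-TFII siRNA samples and 16.8 ± 0.424 in scrambled siRNA samples (SD, n = 3 each). The log2 fold change was 0.40 (SE 0.56), with 0.85, -0.60 and 0.95 by pair. COUP-TFII siRNA replicate 2 moved this value most. Without it the log2 fold change was 0.90, and without COUP-TFII siRNA replicate 3 it was 0.15.

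Sstr3, a receptor known from primary cilia of neurons and islet cells, was read by 1368598_at far above the Bacillus scale on every array. Its signals were 217, 202 and 302 in COUP-TFII siRNA replicates 1 to 3, against 244, 229 and 277 in scrambled siRNA replicates 1 to 3. The scrambled siRNA arrays all lay inside the range of the COUP-TFII siRNA arrays. The means were 241 ± 54.0 in COUP-TFII siRNA samples and 249.9 ± 25.0 in scrambled siRNA samples (SD, n = 3 each). The log2 fold change was -0.07, and its SE of 0.19 was the smallest among the receptor probe sets.

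Sstr1, which couples to the same inhibitory G proteins and is known to internalize poorly after binding its ligand in rat, had 3 probe sets. The brightest one, 1369770_at, read 93.2, 78.2 and 73.4 in COUP-TFII siRNA replicates 1 to 3, against 67.6, 67.0 and 87.5 in scrambled siRNA replicates 1 to 3. COUP-TFII siRNA replicate 1 was the highest array, but scrambled siRNA replicate 3 lay above the other COUP-TFII siRNA arrays. The means were 81.6 ± 10.3 in COUP-TFII siRNA samples and 74.0 ± 11.7 in scrambled siRNA samples (SD, n = 3 each), and the log2 fold change was 0.15 (SE 0.24). Sstr1 1387692_a_at read 23.2, 9.52 and 20.4 in COUP-TFII siRNA replicates 1 to 3, against 13.1, 15.9 and 32.8 in scrambled siRNA replicates 1 to 3. Its pairs went both ways, with 0.82, -0.74 and -0.69 on the log2 scale, around a log2 fold change of -0.20 (SE 0.60). Sstr1 1371201_at read between 2.49 and 4.07 in COUP-TFII siRNA samples and between 1.77 and 4.29 in scrambled siRNA samples, and had a log2 fold change of 0.15 (SE 0.70).

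Sstr4, known mainly from brain and lung, was read by 1387705_at under the Bacillus scale on all 6 arrays. Its signals were 3.57, 18.3 and 15.1 in COUP-TFII siRNA replicates 1 to 3, against 2.59, 9.47 and 13.5 in scrambled siRNA replicates 1 to 3. The groups overlapped and replicate 1 was the lowest array of each, while every COUP-TFII siRNA array read above the scrambled siRNA array of its number. The log2 fold change was 0.53 (SE 0.92). It came to 1.27 with COUP-TFII siRNA replicate 1 left out and -0.18 without scrambled siRNA replicate 1, so its direction hung on single dim arrays.

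**Figure D2:**
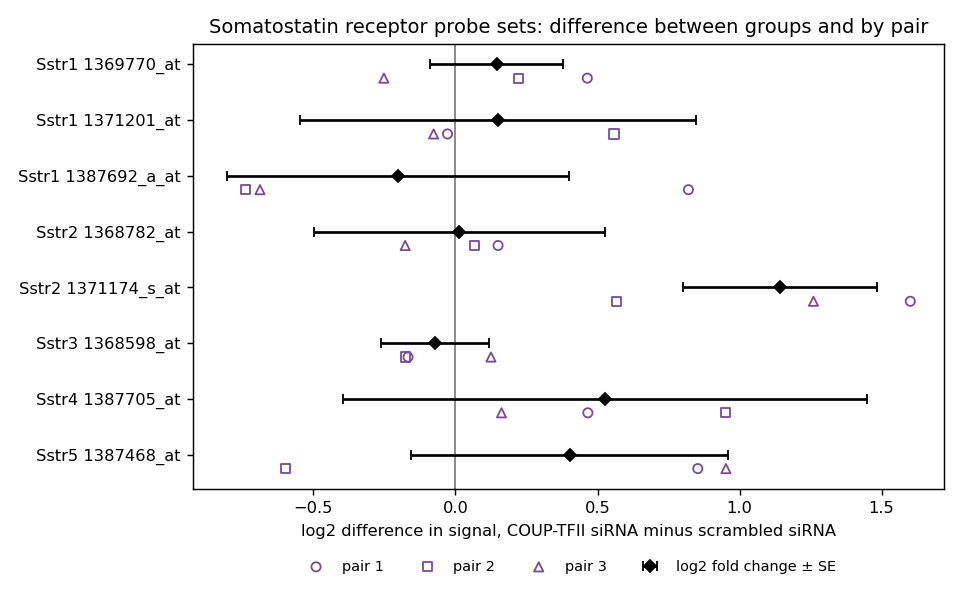
Log2 difference in signal, COUP-TFII siRNA minus scrambled siRNA (horizontal axis), for each receptor probe set, with diamonds for the log2 fold change, bars for its SE, and open symbols for the differences within pairs of arrays with the same replicate number. Sstr2 1371174_s_at stands at 1.14 with all 3 pairs above 0, and the SE of each of the other probe sets reaches past 0.

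Over the family, 6 of the 8 probe sets had a positive and 2 a negative log2 fold change, with a median of 0.15, where the median over all 31042 probe sets was -0.00309. Only Sstr2 1371174_s_at had groups that did not overlap with COUP-TFII siRNA higher, which 3.25% of all probe sets also had, and no receptor probe set lay lower without overlap, as 3.49% of all did. Sstr2 1371174_s_at and Sstr4 1387705_at read higher in COUP-TFII siRNA in 3 of 3 pairs, as did 13.4% of all probe sets, and no receptor probe set read lower in all 3, against 14.0% of all. No probe set of any gene passed an adjusted p of 0.05 in limma's unpaired comparison (0.0% of 31042). That includes Nr2f2 1389554_at, the siRNA target, with a log2 fold change of -2.65 (SE 0.30), so a failure to pass is not read as no change. With the replicate number as a block 5 probe sets passed, or 0.0161% of all, and none of them was a receptor. Because the receptors were chosen by their signals in this contrast, nothing is read from these shares.

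The measured ligand of the family stayed under the Bacillus scale. Sst, the somatostatin gene, read 14.1, 14.1 and 2.04 in COUP-TFII siRNA replicates 1 to 3, against 5.32, 8.42 and 5.63 in scrambled siRNA replicates 1 to 3, and no array exceeded the Bacillus scale. Its log2 fold change was 0.23 (SE 0.89). The mean Bacillus signal of the same array is a lower scale, which Sst exceeded on every array but COUP-TFII siRNA replicate 3. Sst read 14.1 against 6.93 in COUP-TFII siRNA replicate 1, but 2.04 against 3.45 in COUP-TFII siRNA replicate 3. Cortistatin (Cort), the second natural ligand, was not named because its probe set is annotated to several symbols. Of the 4 delta cell markers none read above the Bacillus scale on all 6 arrays. Sst, Hhex and Rbp4 stayed under it on every array, and the summed marker signal ran from 35.1 to 39.2 in COUP-TFII siRNA samples and from 19.7 to 38.5 in scrambled siRNA samples.

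The genes through which the receptors act were taken from lists of 119 symbols, of which 106 had a named probe set, and the brightest probe set of each was used. None of these genes passed an adjusted p of 0.05 in limma, unpaired or with the replicate block. As Nr2f2 did not pass unpaired either, this is not read as no change in these genes. At an unadjusted p up to 0.05 none was higher and 2 were lower in COUP-TFII siRNA samples, where 0.973% of all probe sets were higher and 1.34% lower. With the replicate block 1 was higher and 6 were lower at that threshold, where 2.72% of all probe sets were higher and 3.51% lower. The log2 fold changes were positive for 56 of the 106 genes and negative for 50, with a median of 0.01. Groups did not overlap for 3 of the 106 genes with COUP-TFII siRNA higher and for 4 with it lower. Of all probe sets, 3.25% were higher and 3.49% lower without overlap.

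The α subunits of Gi and Go, which carry the receptor signal, were listed together with Gnaz, the α subunit of Gz. All 4 measured genes read above the Bacillus scale, and their log2 fold changes had a median of -0.04. Gnai2 had a log2 fold change of -0.18, Gnaz of -0.12 and Gnai1 of 0.13. For the 14 measured β and γ subunits, which open the potassium channels, the median was 0.02. Gng12 had a log2 fold change of -0.26 and Gnb4 of 0.25. Gng3, named after its values were seen, read 649, 1288 and 328 in COUP-TFII siRNA replicates 1 to 3, against 879, 1678 and 569 in scrambled siRNA replicates 1 to 3. Its groups overlapped, while every COUP-TFII siRNA array read below the scrambled siRNA array of its number. For Gng3 the log2 fold change was -0.54 (SE 0.51 unpaired and 0.10 with the replicate block), with an adjusted p of 0.361 from limma with the block. Of the 4 GIRK potassium channel subunits, Kcnj3 had a log2 fold change of 0.19 (SE 0.49) and Kcnj6 of -0.13 (SE 0.36), and the other 2 were dim.

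The adenylyl cyclases make cAMP, and Gi restrains some of them. They had 5 positive and 3 negative log2 fold changes among 8 genes, with a median of 0.36. Only 3 of the 8 had a mean above the Bacillus scale in a group. Adcy2 read 28.3, 20.2 and 27.1 in COUP-TFII siRNA replicates 1 to 3, against 14.0, 11.4 and 20.1 in scrambled siRNA replicates 1 to 3. These groups did not overlap, but the lowest COUP-TFII siRNA array and the highest scrambled siRNA array nearly met, and the log2 fold change was 0.75 (SE 0.48). Adcy2 was named through its COUP-TFII siRNA mean of 25.2 alone, as its scrambled siRNA mean of 15.2 lay under the Bacillus scale. The dim Adcy4, named after its values were seen as the other cyclase without overlap, read 5.05, 6.42 and 9.74 in COUP-TFII siRNA replicates 1 to 3, against 3.54, 1.45 and 2.83 in scrambled siRNA replicates 1 to 3, a log2 fold change of 1.48 (SE 0.72). Adcy6, with means of 288 in both groups, had a log2 fold change of 0.00 (SE 0.15). For the 13 voltage-gated calcium channel subunits the median was 0.11. Cacna1b, the pore of the N-type channel, had a log2 fold change of 0.54 (SE 0.45), and Cacnb3 of -0.30 (SE 0.29). That of Cacnb1, -1.30 (SE 0.97), came with a single low signal of 3.02 in COUP-TFII siRNA replicate 1, against 44.3 to 50.0 in the other COUP-TFII siRNA samples and 40.7 to 57.5 in scrambled siRNA samples.

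The receptor-linked tyrosine phosphatases Ptpn6, Ptpn11 and Ptprj, through which somatostatin is known to slow growth, had log2 fold changes between -0.01 and 0.03. The receptor kinases, arrestins and RGS proteins, which switch the receptors and their G proteins off, were listed together with Gpsm1, Gpsm2 and Gpsm3. Of the 25 measured genes in this list, 12 had positive and 13 negative log2 fold changes, with a median of -0.01. Grk6, a receptor kinase, read 1247, 1346 and 1410 in COUP-TFII siRNA replicates 1 to 3, against 1513, 1416 and 1615 in scrambled siRNA replicates 1 to 3, a log2 fold change of -0.18 (SE 0.13) without overlap.

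Dlg4 and Pdzk1, the genes past the unadjusted threshold in the unpaired fit, were both PDZ scaffolds, which tether receptor tails. With the replicate block Gng3, Gng12, Shank2 and Cacnb3 also lay lower past that threshold and Cacna2d1, a calcium channel subunit, lay higher, and none of them passed after adjustment. Gng3 and Cacna2d1 were named after their values were seen. Dlg4, the postsynaptic density protein PSD-95, read 201, 204 and 163 in COUP-TFII siRNA replicates 1 to 3, against 301, 313 and 232 in scrambled siRNA replicates 1 to 3. All COUP-TFII siRNA arrays lay below all scrambled siRNA arrays, and the pairs differed by -0.58, -0.62 and -0.51 on the log2 scale. The log2 fold change was -0.57 (SE 0.18), and limma's adjusted p was 1.0 unpaired and 0.308 with the replicate block. Pdzk1, named after its values were seen because it lay outside the rule on brightness, read 2.04 to 6.74 in COUP-TFII siRNA samples and 11.2 to 24.0 in scrambled siRNA samples. Only 1 of these signals, in scrambled siRNA replicate 3, exceeded the Bacillus scale. Its adjusted p from limma was 1.0. Over the 6 scaffolds 5 log2 fold changes were negative, with -0.32 (SE 0.18) for Shank2 and -0.05 (SE 0.15) for Gopc, and the median was -0.20.

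Other receptors that use the same G proteins were set beside the somatostatin receptors. Among 28 such genes 15 log2 fold changes were positive and 13 negative, with a median of 0.07, and limma called none at an unadjusted p up to 0.05 in either direction. Galr2, a galanin receptor, read 58.3 to 72.4 in COUP-TFII siRNA samples and 82.97 to 88.0 in scrambled siRNA samples, a log2 fold change of -0.36 (SE 0.22). The groups of Galr2 did not overlap. Nor did those of Chrm4, which was higher in COUP-TFII siRNA and was named after its values were seen. Chrm4 read 23.7 to 26.2 in COUP-TFII siRNA samples and 14.5 to 21.6 in scrambled siRNA samples, a log2 fold change of 0.53 (SE 0.445). The dopamine receptor Drd2 had a log2 fold change of -0.82 (SE 0.55) with overlapping groups. Of the 3 probe sets of Drd4 the brightest, 1394385_s_at, exceeded the Bacillus scale in its COUP-TFII siRNA mean alone, 23.4 against 12.1 in scrambled siRNA samples. It had a log2 fold change of 0.86 (SE 0.56) with overlapping groups. The other log2 fold changes were -1.68 for 1394384_at, without overlap and under the Bacillus scale on all 6 arrays, and 0.91 for 1387520_at, over it on 1 array.

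**Figure D3:**
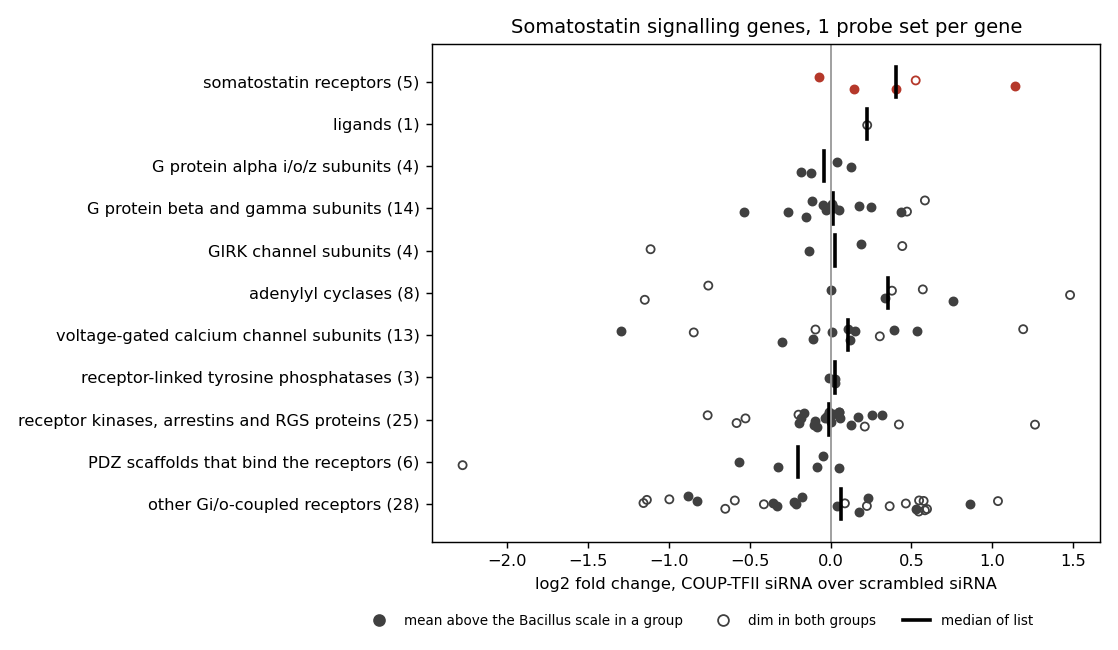
Log2 fold change of COUP-TFII siRNA relative to scrambled siRNA (horizontal axis) for the brightest probe set per gene in each list of somatostatin signalling genes, with the number of genes in brackets, open circles for genes dim in both groups and a bar at each list's median. The receptors (red) include Sstr2 1371174_s_at at 1.14, while Sstr2 1368782_at, with a log2 fold change of 0.01, is not drawn. Most filled circles of the other lists lie near 0. As the receptors were chosen by their signals in this contrast, no comparison with the lists is drawn from it.

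The genes whose log2 signals followed those of Sstr2 1371174_s_at most closely were sought among the 12188 named probe sets whose mean log2 signal reached the median of 5.07. Pearson's r over the 6 arrays was 0.98 for Zfp236, a zinc finger protein, and 0.97 for Porcn, the enzyme that attaches the lipid to Wnt proteins. It was 0.97 for Gtf2e1, a subunit of the general transcription factor TFIIE, and 0.96 for both Eef1akmt2, a lysine methyltransferase, and Gpt2, the mitochondrial alanine aminotransferase. Zfp236 read 76.3, 74.7 and 83.3 in COUP-TFII siRNA replicates 1 to 3, against 47.7, 59.3 and 50.2 in scrambled siRNA replicates 1 to 3. In these 5 probe sets, as in Sstr2 1371174_s_at, the 3 COUP-TFII siRNA arrays lay above the 3 scrambled siRNA arrays. Replicate 2 was the highest scrambled siRNA array in all of them. Their log2 fold changes ran from 0.44 for Eef1akmt2 to 0.94 for Gtf2e1. Among the 12188 probe sets 8 had an r of at least 0.95 and 8 an r of -0.95 or below. The other receptor probe sets were less alike, with r of 0.52 for Sstr5, 0.40 for Sstr1 1369770_at, 0.32 for Sstr4, -0.10 for Sstr3 and -0.03 for Sstr2 1368782_at. These are correlations over 6 arrays that share 2 groups, given as a description. The 5 probe sets were picked for a high r over the same arrays, so their shared split and array order follow largely from that choice.

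**Figure D4:**
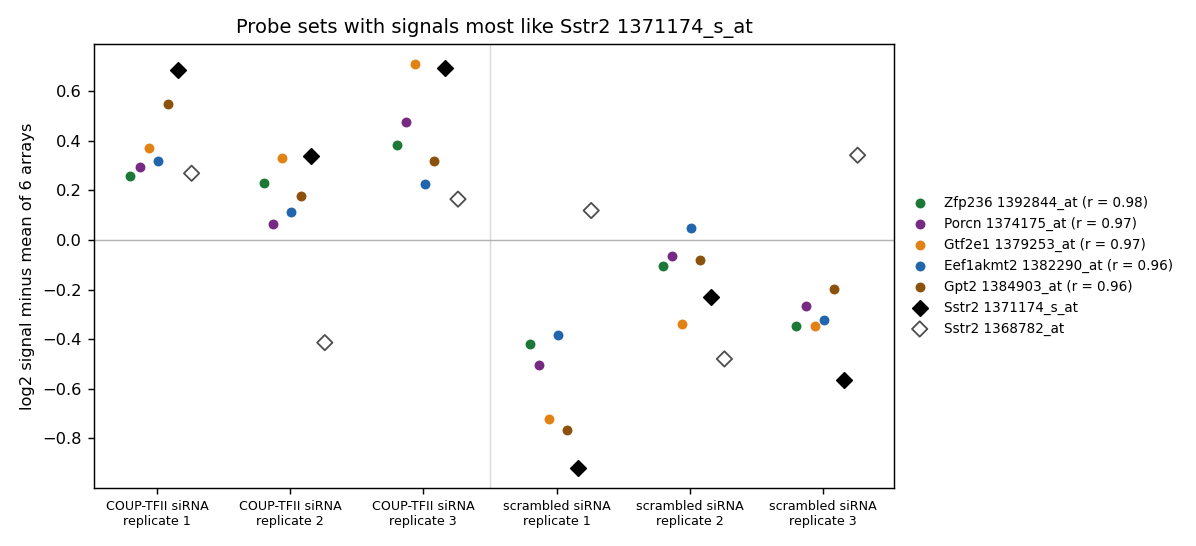
Log2 signal minus the mean of the 6 arrays (vertical axis) on each array (horizontal axis, COUP-TFII siRNA replicates left and scrambled siRNA replicates right) for Sstr2 1371174_s_at, Sstr2 1368782_at and the 5 probe sets with the highest Pearson r to the first. The filled symbols lie above 0 on the COUP-TFII siRNA arrays and, but for Eef1akmt2 in replicate 2, below 0 on the scrambled siRNA arrays, while Sstr2 1368782_at lies lowest on both replicate 2 arrays.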

How the data were processed

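Total RNA of the 6 samples was hybridized to Affymetrix rat arrays. The authors processed the scans with MAS5 (version not given in the sources used here) and deposited 1 background-subtracted, normalized intensity per probe set and array, without detection calls. Signals under 1 (1.85% to 5.49% per array) were set to 1, log2 was taken and no further scaling was applied. After leaving out 57 control probe sets, 31042 probe sets were fitted without pairing in limma 3.58.1 under R 4.3.3, by lmFit and a trended eBayes. Two-sided p-values were adjusted by the Benjamini-Hochberg procedure across every probe set fitted. The replicate numbers were taken to pair the arrays, since the deviations of same-numbered arrays from their group means correlated (r = 0.111, 0.231 and 0.163). Other pairs gave -0.146 to -0.0104. Deviations from a group mean cancel within the group, so positive values for same-numbered arrays push the others negative. The negative values are therefore no separate support for the pairing. Of the probe sets, 20826 had a single symbol in the platform annotation, 436 had more than 1 and 9780 were without. Promoters came from RefSeq (GRCr8), where all 5 receptors matched by symbol. No 2 arrays held identical values. The labels call the samples biological replicates but do not describe separate cultures, so SEs and p-values measure the spread between these samples, and the number of arrays limits the precision.

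The members and the lists were chosen with earlier results of these data known. The named genes are all probe sets of the receptors, the ligands and Nr2f2, up to 3 genes of lowest p per list among those not dim, and the 5 probe sets most like the brightest Sstr2 probe set. The text prints a part of them, and marks genes added after their values were seen. Alternatives were the replicate block, quantile normalization, median centring, log2(signal + 16), no trend, the methods' t-test, a filter on dim probe sets, all probe sets per gene, another Bacillus scale and each array left out. Python 3.11.15 and matplotlib 3.10.9 drew the figures.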

Additional observations from a re-analysis of the deposited data

How the results depend on the processing

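The log2 fold change of Sstr2 1371174_s_at was 1.14, and it ran from 0.97 (without scrambled siRNA replicate 1) to 1.31 (without scrambled siRNA replicate 2) with 1 array left out. It was 0.80 with log2(signal + 16), which shrinks changes of low signals by construction, and 1.43 without both replicate 2 arrays, an alternative chosen after seeing the data. The replicate block, which cannot move a mean difference in this balanced design, gave 1.14 with an SE of 0.32. Across all probe sets the unpaired limma fit called 0, and 0 with any 1 array left out, while the replicate block called 5 and the methods' t-test 1 after Benjamini-Hochberg adjustment (before adjustment, at a threshold of 0.05, it gave 472 higher and 502 lower probe sets). At that threshold limma gave 302 higher and 415 lower probe sets unpaired and 844 higher and 1089 lower with the replicate block. The cause of these differences was not tested. The pathway count after adjustment was 0 in every alternative run. At the unadjusted threshold 0 pathway genes were higher and 2 lower in the unpaired fit, 1 and 6 with the replicate block, 2 and 3 with the methods' t-test, 0 and 1 with median centring or among probe sets above the Bacillus scale, and 0 and 4 over all 178 probe sets of these genes.

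Directions of the other receptor probe sets were less settled. With 1 array left out Sstr3 ran from -0.25 to 0.04, Sstr2 1368782_at from -0.22 to 0.22, Sstr1 1371201_at from -0.15 to 0.49, Sstr1 1387692_a_at from -0.47 to 0.20 and Sstr4 from -0.18 to 1.27, while Sstr1 1369770_at (0.05 to 0.27) and Sstr5 (0.15 to 0.90) kept their sign. Measured against the mean Bacillus signal of the same array, Sstr2 1368782_at, Sstr5 and Sstr1 1387692_a_at read above background on 6 arrays, Sstr4 on 4 and Sstr1 1371201_at on 1. What is called background here thus depends on that scale, since the files used give no detection calls. With 3 arrays per group an exact permutation test of a single probe set cannot give a two-sided p below 0.1.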
